A study of Mus musculus with 49 samples.

Results

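Neural crest and Schwann lineage genes were followed by RNA sequencing while mouse embryonic stem cells differentiated toward neural fates, with and without an antidepressant. The 9 genes, taken from the table by their symbols, were Foxd3, Tfap2a, Tfap2b, Snai2, Twist1, Ednrb, Ngfr, Erbb3 and Ets1, and all 9 were found among 52550 gene rows. The cells were ES-D3, an established mouse line, in the neural embryonic stem cell test, a culture assay for developmental neurotoxicity. Cells aggregated into embryoid bodies for 3 days and were then exposed to a drug until sampling. The 7 groups had 7 libraries each. Fluoxetine at 2 µM was sampled on days 7 and 13, after 4 and 10 days of exposure. Venlafaxine at 90 µM was sampled on the same days. Controls without either drug were sampled on days 0, 7 and 13, and the labels name no solvent for them. Day 0 cells were undifferentiated stem cells from the same line. No label tells separate differentiations from repeat samples of 1 culture, so p-values measure only the spread between these samples, which may be technical. Libraries held 14059811 to 29225775 counts, and levels are given as CPM, a gene's count relative to its library's TMM-scaled total. In such bulk samples, fewer cells of a type and less RNA per cell cannot be told apart.

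The neural crest is a transient population that forms at the border of the neural plate, leaves the neural tube and gives rise to peripheral neurons, Schwann cells, melanocytes and facial skeleton. Border and specifier transcription factors (Tfap2a, Tfap2b, Foxd3, Ets1) act first. Snai2 and Twist1 then repress epithelial genes and accompany migration. The receptors Ednrb (for endothelins), Ngfr (the p75 neurotrophin receptor) and Erbb3 (for neuregulins, in partnership with Erbb2) mark migrating crest and early Schwann cells. None of the 9 is restricted to the crest. Foxd3 is also a factor of pluripotent stem cells, Ednrb is expressed in radial glia, Erbb3 in epithelia and oligodendrocyte precursors, Ets1 in endothelium, Twist1 and Snai2 in mesenchyme, and Tfap2a and Tfap2b in sets of central neurons.

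The genes lie on 9 different chromosomes of GRCm38, and all are protein coding. Foxd3 (ENSMUSG00000067261.4) is a gene of 1 exon at chr4:99656299-99658622 on the plus strand. Tfap2a (ENSMUSG00000021359.16) lies at chr13:40715302-40738376 on the minus strand and Tfap2b (ENSMUSG00000025927.13) at chr1:19208914-19238576 on the plus strand. Snai2 (ENSMUSG00000022676.6) lies at chr16:14705852-14709395, Twist1 (ENSMUSG00000035799.6) at chr12:33957671-33959829 and Ets1 (ENSMUSG00000032035.15) at chr9:32636221-32757820, all on the plus strand. Of the receptors, Ednrb (ENSMUSG00000022122.14) spans chr14:103814625-103844173, Ngfr (ENSMUSG00000000120.6) chr11:95568818-95587735 and Erbb3 (ENSMUSG00000018166.8) chr10:128567523-128589652, all on the minus strand. Tfap2a shares exon bases with 3 antisense genes, and how the counting used strand is not stated. Those 3 genes held 163, 296 and 14 counts over the 49 libraries, against 14543 for Tfap2a.

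The promoters of Tfap2a, Tfap2b and Ednrb are shown because these genes varied together or in opposition among the libraries. They are RefSeq windows on GRCm38.p6, from 250 bases before to 50 after the transcript start, written 5′ to 3′ on the gene's strand. Capitals mark GCCNNNGGC, the palindromic site bound by TFAP2 factors.

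Tfap2a, first window, chr13:40733746-40734045, minus strand: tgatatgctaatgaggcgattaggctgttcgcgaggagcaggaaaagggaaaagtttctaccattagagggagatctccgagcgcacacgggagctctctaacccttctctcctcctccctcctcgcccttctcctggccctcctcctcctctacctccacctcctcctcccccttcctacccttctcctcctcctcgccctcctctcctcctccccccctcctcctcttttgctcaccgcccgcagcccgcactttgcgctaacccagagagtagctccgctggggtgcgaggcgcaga
Tfap2a, second window, chr13:40734871-40735170, minus strand: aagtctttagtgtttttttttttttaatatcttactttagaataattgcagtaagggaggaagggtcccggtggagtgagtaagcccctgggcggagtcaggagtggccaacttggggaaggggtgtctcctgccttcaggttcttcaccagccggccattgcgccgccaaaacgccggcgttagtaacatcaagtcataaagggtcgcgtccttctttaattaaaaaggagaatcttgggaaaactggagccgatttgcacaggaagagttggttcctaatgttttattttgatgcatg
Tfap2b, chr1:19211804-19212103, plus strand: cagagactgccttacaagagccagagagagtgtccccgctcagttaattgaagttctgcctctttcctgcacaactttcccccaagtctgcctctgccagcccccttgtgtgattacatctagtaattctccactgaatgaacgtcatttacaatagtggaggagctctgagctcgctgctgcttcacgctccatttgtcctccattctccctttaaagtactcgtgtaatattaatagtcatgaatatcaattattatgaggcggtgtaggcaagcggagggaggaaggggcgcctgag
Ednrb, chr14:103843652-103843951, minus strand: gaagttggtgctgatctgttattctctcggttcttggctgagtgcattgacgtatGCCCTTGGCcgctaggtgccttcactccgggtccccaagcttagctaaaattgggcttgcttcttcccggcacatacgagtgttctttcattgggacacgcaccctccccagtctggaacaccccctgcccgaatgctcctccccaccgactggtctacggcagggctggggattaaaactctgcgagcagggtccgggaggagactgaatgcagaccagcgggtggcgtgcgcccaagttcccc

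GCCNNNGGC occurred in the Ednrb window, as GCCCTTGGC from base 56, and in neither Tfap2a window nor the Tfap2b window. Searched on both strands, it occurred in 16.6% of 32817 promoter windows of the same length. CAGGTG, the E-box bound by SNAI factors and also searched on both strands, is not in these 4 windows, and 20.2% of all windows hold it. The 2 motifs do not overlap each other. Windows were found for 6 of the 9 genes, and those of Foxd3, Ngfr and Twist1 held neither motif. A match is a description of letters, not of binding.

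Other genes of these lineages were present at very different levels. Sox10, the factor that the crest keeps through the Schwann lineage, averaged 73.0 ± 5.70 CPM with fluoxetine, 76.0 ± 16.1 CPM with venlafaxine and 54.2 ± 13.3 CPM in controls on day 13 (SD, n = 7 each). Oligodendrocyte precursors also express Sox10, and their receptor Gpr17 averaged 155.4, 181.6 and 126.9 CPM in the same 3 groups. Both named genes more restricted to Schwann cells and their precursors were low. Egr2, a factor for peripheral myelination, averaged 0.258 CPM with fluoxetine, 0.245 CPM with venlafaxine and 0.850 CPM in controls on day 13, and the adhesion gene Cdh19 averaged 0.826, 0.479 and 1.5 CPM in the same groups. These 4 genes were chosen after their values were seen, and they do not show which cells express the 9 genes. No cell identity is read from the levels below.

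In control cultures the 9 genes followed separate courses from day 0 through day 7 to day 13. By day 7 the border factors Tfap2a and Tfap2b, the receptor Ednrb, Ets1 and Twist1 were higher, and Foxd3 and Erbb3 were lower. By day 13 Foxd3, Tfap2a, Snai2, Twist1 and Ednrb were higher than on day 7, while Erbb3 and Ets1 were lower. Ngfr stayed between 32.9 and 47.0 CPM in every control library.

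Among the factors, Foxd3 spanned 40.7 to 49.2 CPM on day 0 (median 44.1), 3.24 to 4.34 CPM on day 7 (median 3.45) and 5.14 to 12.2 CPM on day 13 (median 7.80). The 3 ranges did not overlap. Its log2 fold change was −3.58 ± 0.135 (SE) for day 7 over day 0 and 1.09 ± 0.144 for day 13 over day 7 (edgeR quasi-likelihood test, Benjamini-Hochberg adjusted p = 1.18e-17 and 2.56e-07). Beside it, all 8 pluripotent cell markers fell by day 7, and their summed level ran from 6384 to 6843 CPM on day 0, 94.5 to 129 CPM on day 7 and 104 to 259 CPM on day 13. Their part in the course of Foxd3 was not tested.

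Tfap2a spanned 0.968 to 1.32 CPM on day 0 (median 1.26), 5.41 to 18.5 CPM on day 7 (median 15.8) and 13.8 to 52.3 CPM on day 13 (median 22.5). Every day 7 library lay above every day 0 library, while days 7 and 13 overlapped. Its log2 fold change was 3.48 ± 0.403 for day 7 over day 0 and 1.16 ± 0.271 for day 13 over day 7 (edgeR adjusted p = 6.83e-08 and 0.000567). Tfap2b had no count in any of the 7 day 0 libraries, which allows up to 0.0271 CPM over the group (a floor of 3 counts, counting error only). It spanned 15.6 to 34.2 CPM on day 7 (median 25.9) and 7.33 to 34.4 CPM on day 13 (median 19.2). Against the floor, its day 7 mean was at least 984-fold higher. Days 7 and 13 overlapped almost wholly, and the log2 fold change of day 13 over day 7 was −0.25 ± 0.295 (edgeR adjusted p = 0.441, 95% interval −0.83 to 0.33). Per kilobase of exon, Tfap2b stood above Tfap2a in day 7 controls (4.21 and 2.73 CPM per kb) and below it in day 13 controls (3.53 and 6.08 CPM per kb).

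Snai2, a repressor of epithelial genes, was the lowest of the 9 genes per kilobase on days 7 and 13. It spanned 0.292 to 0.821 CPM on day 0 (median 0.484), 0.414 to 0.910 CPM on day 7 (median 0.616) and 0.529 to 2.34 CPM on day 13 (median 1.2), with 5 to 69 counts per library. All 3 ranges overlapped. Day 13 exceeded day 7 by a log2 fold change of 1.12 ± 0.276 (edgeR adjusted p = 0.000651). Twist1, a related factor of mesenchyme, spanned 2.02 to 3.03 CPM on day 0 (median 2.69), 4.19 to 5.14 CPM on day 7 (median 4.83) and 5.77 to 12.8 CPM on day 13 (median 9.14), with no overlap between days. Its log2 fold change was 0.87 ± 0.159 for day 7 over day 0 and 0.93 ± 0.138 for day 13 over day 7 (edgeR adjusted p = 1.81e-05 and 1.17e-06). Beside both, 7 of 9 tested mesenchyme markers rose from day 7 to day 13 and 2 fell, and their summed level ran from 60.3 to 65.1 CPM on day 0, 265.5 to 313 CPM on day 7 and 398 to 1260 CPM on day 13. Their part in these courses was not tested.

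Ets1, a factor of cranial crest and of endothelium, spanned 6.53 to 9.19 CPM on day 0 (median 7.68), 30.5 to 34.4 CPM on day 7 (median 31.6) and 18.5 to 27.1 CPM on day 13 (median 22.6). The days did not overlap, so day 13 lay between the other two. Ets1 had a log2 fold change of 2.06 ± 0.0831 for day 7 over day 0 and −0.48 ± 0.0731 for day 13 over day 7 (edgeR adjusted p = 1.08e-17 and 1.78e-06). The summed endothelial markers ran from 104 to 118 CPM on day 0, 267 to 302 CPM on day 7 and 72.4 to 147 CPM on day 13, and their part in the course of Ets1 was not tested.

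Among the receptors, Ednrb spanned 0.114 to 1.45 CPM on day 0 (median 0.240), 224 to 275 CPM on day 7 (median 254) and 406 to 517 CPM on day 13 (median 467). The days did not overlap. Ednrb had a log2 fold change of 9.01 ± 0.156 for day 7 over day 0 and 0.85 ± 0.0793 for day 13 over day 7 (edgeR adjusted p = 2.30e-23 and 1.16e-09). Ednrb was the most abundant of the 9 genes per kilobase on both later days, at 59.5 and 106.7 CPM per kb. The radial glia and astrocyte markers, cells that also express Ednrb, summed to 373 to 399 CPM on day 0, 1268 to 1395 CPM on day 7 and 1970 to 2506 CPM on day 13, and their part in its course was not tested.

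Erbb3, the neuregulin receptor of early Schwann cells, spanned 37.9 to 45.8 CPM on day 0 (median 43.8), 16.3 to 27.5 CPM on day 7 (median 21.9) and 6.53 to 11.5 CPM on day 13 (median 8.58). Each day lay wholly below the one before. Erbb3 had a log2 fold change of −0.92 ± 0.108 for day 7 over day 0 and −1.39 ± 0.118 for day 13 over day 7 (edgeR adjusted p = 3.10e-08 and 1.46e-10). All 8 surface and simple epithelium markers fell from day 7 to day 13 as well, with summed levels of 948 to 1014 CPM on day 0, 803 to 1312 CPM on day 7 and 107 to 335 CPM on day 13, and their part in the course of Erbb3 was not tested. Ngfr, the p75 receptor, spanned 33.8 to 39.3 CPM on day 0 (median 38.4), 33.7 to 44.4 CPM on day 7 (median 37.5) and 32.9 to 47.0 CPM on day 13 (median 40.6). The days overlapped, and its log2 fold change was 0.00 (95% interval −0.14 to 0.15) for day 7 over day 0 and 0.10 (−0.04 to 0.25) for day 13 over day 7 (edgeR adjusted p = 0.958 and 0.190). Without control day 13 library 4 the later difference was 0.15 with an adjusted p of 0.0407. Against day 0, day 13 was higher by 0.11 (adjusted p = 0.166), and without library 2 or library 4 by 0.15 and 0.16 (adjusted p = 0.0476 and 0.0304).

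In all, 5 of the 9 genes were called higher and 2 lower on day 7 than on day 0, where 45.3% of 16969 genes tested were called higher and 43.4% lower, 88.8% in all. On day 13 again 5 were higher and 2 lower than on day 7, where 42.1% of all genes were higher and 40.9% lower, 83% in all. Against day 0, 6 were higher and 2 lower on day 13, where 48.3% of all genes were higher and 45.1% lower, 93.4% in all. Related genes moved in the same windows. Of 14 tested crest specifiers and border genes, 12 rose and 2 fell by day 7 (median log2 fold change 2.68, against 0.03 over all genes), and 7 rose and 5 fell from day 7 to day 13 (0.25, against 0.01). Sox10 rose to 54.2 CPM on day 13, against 1.28 CPM on day 7, and Msx2, a border gene, fell to 1.29 CPM on day 13, against 7.26 CPM on day 7. Of 12 tested Schwann lineage and myelination genes, 9 rose and 3 fell from day 7 to day 13 (median 2.27). By smallest p the first were Gap43 and L1cam, which neurons also express. In the same window 10 of 10 neuron markers rose (median 2.75), as did 7 of 8 oligodendrocyte precursor markers (median 4.92). Sox10 is in both the Schwann and the oligodendrocyte precursor list. The part of these markers in the rise of the Schwann list was not tested. Of 18 ligands, co-receptors and relatives of the receptors, 14 rose and 1 fell by day 7, and 11 rose and 7 fell from day 7 to day 13. Of 12 crest-derived autonomic, sensory and melanocyte genes, 2 rose and 3 fell from day 7 to day 13. Gata3 rose to 77.5 CPM on day 13, against 8.51 CPM on day 7.

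**Figure D1:**
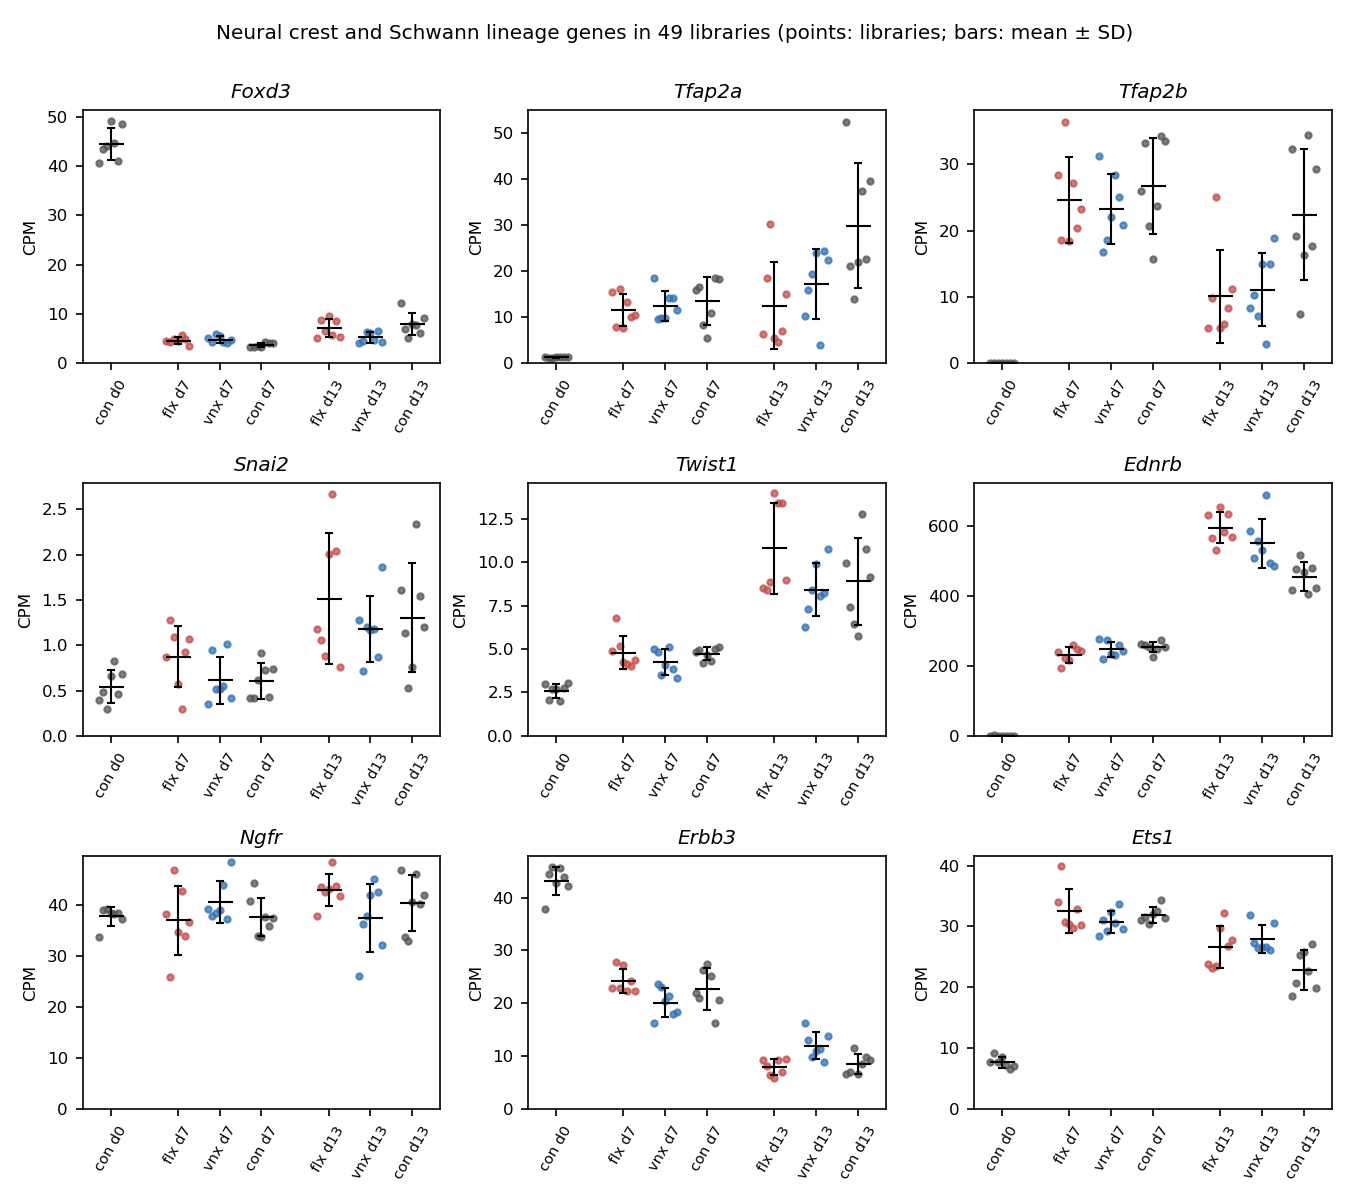
CPM of each gene (vertical axes, from 0) in each of the 49 libraries, by group: control (con) on day 0, then fluoxetine (flx), venlafaxine (vnx) and control on day 7, and the same on day 13. Points are libraries and bars give the mean and SD of 7. Foxd3 and Erbb3 are highest on day 0, Tfap2b has no count there, Ednrb is higher on each later day, and Ngfr lies between 25.8 and 48.5 CPM in all libraries.

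On day 7, after 4 days of exposure, none of the 9 genes passed the test with either drug. With fluoxetine, 0 of 9 were called by edgeR and by DESeq2, where 0.0513% of all 15601 genes were called by edgeR (0.032% higher and 0.0192% lower). An unadjusted p under 0.05 was found for 2 of 9, and for 9.13% of all genes. With venlafaxine, 0 of 9 were called by edgeR and 1 by DESeq2, where 3.84% of all genes were called by edgeR (1.9% higher and 1.94% lower) and 5.45% by DESeq2. An unadjusted p under 0.05 was found for 1 of 9, and for 17.3% of all genes. Between the drugs, 0 of 9 were called by both tools, against 0.147% of all genes by edgeR (0.103% higher and 0.0449% lower with fluoxetine). Here 1 of 9 had an unadjusted p under 0.05, and 8.38% of all genes did.

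Foxd3 came closest on day 7. It spanned 3.38 to 5.60 CPM with fluoxetine (median 4.40), 4.06 to 5.80 CPM with venlafaxine (median 4.58) and 3.24 to 4.34 CPM in controls (median 3.45). All 7 venlafaxine libraries and 6 of 7 fluoxetine libraries lay above the control median, and the ranges overlapped. The log2 fold change over control was 0.37 ± 0.108 with venlafaxine (edgeR adjusted p = 0.0517) and 0.30 ± 0.107 with fluoxetine (adjusted p = 0.402). Venlafaxine passed with DESeq2 (adjusted p = 0.0342), with a filter at 1 CPM (0.0471) and without any of 6 libraries in turn: control 6 (0.0364), fluoxetine 5 (0.0431) or 8 (0.0355), and venlafaxine 2 (0.0449), 6 (0.0499) or 7 (0.0440). Over all 21 libraries left out in turn the adjusted p ran from 0.0355 to 0.123. The summed pluripotent markers ran from 97.4 to 151 CPM with fluoxetine, 104 to 276.5 CPM with venlafaxine and 94.5 to 129 CPM in controls, and their part was not tested.

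The other 8 genes overlapped between drug and control on day 7. Ednrb spanned 193 to 260 CPM with fluoxetine (median 238), 221 to 276 CPM with venlafaxine (median 242) and 224 to 275 CPM in controls (median 254). The log2 differences were −0.13 (95% interval −0.25 to −0.02) with fluoxetine and −0.03 (−0.15 to 0.08) with venlafaxine, with edgeR adjusted p = 0.508 and 0.836. For Tfap2a the intervals were −0.71 to 0.27 with fluoxetine and −0.60 to 0.38 with venlafaxine, and for Tfap2b −0.49 to 0.26 and −0.58 to 0.17. Snai2, at 7 to 28 counts per library in treated cultures, had the widest intervals, −0.03 to 1.06 with fluoxetine and −0.60 to 0.57 with venlafaxine. Among related genes, none of the crest specifiers, Schwann, receptor-related or crest-derived lists had a called member with fluoxetine by either tool, while 2 of 14, 3 of 10, 4 of 18 and 1 of 12 had an unadjusted p under 0.05, against the 9.13% of all genes given above. With venlafaxine 3 of 18 receptor-related genes fell. Among them Erbb2, the partner of Erbb3, averaged 48.0 CPM with venlafaxine and 54.2 CPM in controls, with no overlap and a log2 fold change of −0.17 ± 0.0421 (edgeR adjusted p = 0.0170). Ntrk2, the BDNF receptor, averaged 21.6 and 28.1 CPM (−0.37 ± 0.105, adjusted p = 0.0477).

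On day 13, after 10 days of exposure, Ednrb was higher than in controls with each drug. With venlafaxine Erbb3 and Ets1 were also higher and Foxd3 was lower. Tfap2a and Tfap2b had lower means with each drug but did not pass the test. Ngfr, Snai2 and Twist1 did not pass with either drug. Both drugs were compared with the same 7 control libraries. None of these day 13 calls held with a replicate block in the model. The edgeR adjusted p was then 0.102 for Ednrb with fluoxetine. With venlafaxine it was 0.0608 for Ednrb, 0.0600 for Erbb3, 0.0639 for Ets1 and 0.0759 for Foxd3.

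Ednrb spanned 531 to 654 CPM with fluoxetine (median 582), 486 to 688 CPM with venlafaxine (median 531) and 406 to 517 CPM in controls (median 467). Every fluoxetine library lay above every control library. All 7 venlafaxine libraries lay above the control median, with some overlap. The log2 fold change was 0.40 ± 0.0727 with fluoxetine and 0.28 ± 0.0726 with venlafaxine (edgeR adjusted p = 0.0461 and 0.0155). It was the 1 gene of the 9 called with fluoxetine, where 0.116% of 16397 genes were called (0.061% higher and 0.0549% lower). That call lay close to the threshold: it was lost without any of 14 of the 21 libraries of day 13, namely control 1, 2, 5, 6, 7 or 8, fluoxetine 1, 5, 6 or 7 and venlafaxine 2, 3, 4 or 7. In those and the other 7 fits the log2 fold change ran from 0.37 to 0.43 and the adjusted p from 0.00573 to 0.1315. The venlafaxine call held without each library in turn (0.22 to 0.31, adjusted p 0.00459 to 0.0415). It was lost with a replicate block (0.26, edgeR adjusted p = 0.0608). Over all genes, 11.6% rose and 11.3% fell with venlafaxine. Of the 10 radial glia and astrocyte markers, 1 rose with fluoxetine and 5 rose and 1 fell with venlafaxine. Their summed level ran from 2260 to 2475 CPM with fluoxetine, 2308 to 2743 CPM with venlafaxine and 1970 to 2506 CPM in controls, and their part in the Ednrb difference was not tested.

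Tfap2a spanned 4.55 to 30.2 CPM with fluoxetine (median 7.02), 3.83 to 24.2 CPM with venlafaxine (median 19.4) and 13.8 to 52.3 CPM in controls (median 22.5). Tfap2b spanned 5.23 to 25.1 CPM with fluoxetine (median 8.32), 2.84 to 18.9 CPM with venlafaxine (median 10.3) and 7.33 to 34.4 CPM in controls (median 19.2). For both genes 6 of 7 fluoxetine libraries lay below the control median, and all groups overlapped. The log2 fold change of Tfap2a was −1.26 ± 0.417 with fluoxetine and −0.78 ± 0.408 with venlafaxine (edgeR adjusted p = 0.153 and 0.160). That of Tfap2b was −1.14 ± 0.393 and −1.0 ± 0.389 (adjusted p = 0.168 and 0.0648). Fluoxetine library 4 stood apart from the other 6, with 30.2 CPM of Tfap2a and 25.1 CPM of Tfap2b. Without it the fluoxetine differences were −1.66 and −1.56 and passed (adjusted p = 0.0400 and 0.0357), over a range of 0.0357 to 0.329 for the 2 genes with each library left out in turn. The venlafaxine difference of Tfap2b passed without control library 4 (−1.16, adjusted p = 0.0224) and without fluoxetine library 4 (−1.0, adjusted p = 0.0420), in a range of 0.0224 to 0.146, and with all 49 libraries in 1 model (−1.0, adjusted p = 0.0179). That model called 5164 of 17543 genes with venlafaxine, against 3753 of 16397 in the main test.

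The control libraries themselves differed in these genes. Control libraries 1, 6 and 8 had 52.3, 37.4 and 39.5 CPM of Tfap2a and 32.3, 34.4 and 29.3 CPM of Tfap2b, above the other 4 control libraries in both. The same 3 libraries had the lowest Ednrb of day 13, at 416, 406 and 423 CPM. At the other end, venlafaxine library 5 had the lowest Tfap2a and Tfap2b of day 13, at 3.83 and 2.84 CPM, and the highest Ednrb, at 688 CPM. Over 14846 genes their deviations from the control mean were correlated with each other (r from 0.386 to 0.542 for the 3 pairs), and the first axis of variation took 56.8% of the variance among the 7 control libraries. The labels name no batch that could be set against this.

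Erbb3 spanned 5.95 to 9.53 CPM with fluoxetine (median 8.08), 8.79 to 16.3 CPM with venlafaxine (median 11.3) and 6.53 to 11.5 CPM in controls (median 8.58). All 7 venlafaxine libraries lay above the control median and above the fluoxetine median, with some overlap. The log2 fold change was 0.50 ± 0.149 for venlafaxine over control and −0.09 ± 0.151 for fluoxetine over control (edgeR adjusted p = 0.0251 and 0.860). Between the drugs it was −0.59 ± 0.150 for fluoxetine over venlafaxine (adjusted p = 0.0214), the 1 gene of the 9 called there, where 12.1% of all genes were (5.14% higher and 6.97% lower with fluoxetine). The same difference did not pass the test for Ednrb (0.12, 95% interval −0.02 to 0.26) or Foxd3 (0.44, 0.08 to 0.80, adjusted p = 0.108). The venlafaxine call was lost without control library 1 (adjusted p = 0.0635) or venlafaxine library 1 (0.0694) or 8 (0.0579). The call between the drugs was lost without fluoxetine library 5 (0.0526) or 7 (0.0521) or venlafaxine library 1 (0.0563) or 8 (0.0530). Epithelium markers moved beside it. Of 8 markers, 4 rose with venlafaxine over control (Krt19, Krt18, Krt8 and Grhl2), where 11.6% of all genes rose and 11.3% fell. Of the same 8 markers, 6 were lower with fluoxetine than with venlafaxine. Their summed level ran from 103 to 247 CPM with fluoxetine, 237 to 486 CPM with venlafaxine and 107 to 335 CPM in controls. Oligodendrocyte precursor markers, of which 5 of 8 rose with venlafaxine, summed to 594 to 907 CPM, 753 to 1080 CPM and 405 to 874 CPM in the same order. The part of either in the Erbb3 difference was not tested.

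Ets1 spanned 23.1 to 32.2 CPM with fluoxetine (median 26.7), 26.1 to 31.9 CPM with venlafaxine (median 26.7) and 18.5 to 27.1 CPM in controls (median 22.6). All libraries of both drugs lay above the control median. Over control the log2 fold change was 0.24 ± 0.0909 with fluoxetine and 0.30 ± 0.0907 with venlafaxine (edgeR adjusted p = 0.218 and 0.0268). The venlafaxine call was lost without control library 1 (0.0671) or 8 (0.0633) or venlafaxine library 1 (0.0701) or 8 (0.0593). Of 7 tested endothelial markers, 3 rose with venlafaxine (Tek, Pecam1 and Kdr) and none fell, while 11.6% of all genes rose and 11.3% fell. The 10 listed markers summed to 47.2 to 107.5 CPM with fluoxetine, 103 to 168 CPM with venlafaxine and 72.4 to 147 CPM in controls, and their part was not tested.

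Foxd3 spanned 4.99 to 9.51 CPM with fluoxetine (median 6.45), 4.14 to 6.51 CPM with venlafaxine (median 4.63) and 5.14 to 12.2 CPM in controls (median 7.80). All 7 venlafaxine libraries lay below the control median, and the ranges overlapped. Over control the log2 fold change was −0.59 ± 0.183 with venlafaxine and −0.15 ± 0.180 with fluoxetine (edgeR adjusted p = 0.0291 and 0.785). The venlafaxine call was lost with no filter on low counts (0.0555) and without control library 1 (0.0861), 6 (0.0515) or 8 (0.0684) or venlafaxine library 1 (0.0701), 2 (0.0554) or 8 (0.0679). With venlafaxine 11.6% of all genes rose and 11.3% fell, and of 8 pluripotent markers 1 rose and none fell. Their summed level ran from 99.9 to 208 CPM with fluoxetine, 165 to 284 CPM with venlafaxine and 104 to 259 CPM in controls, and their part in the Foxd3 difference was not tested.

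With venlafaxine, 3 of the 9 genes were thus called higher and 1 lower, where 22.9% of all genes were called (11.6% higher and 11.3% lower). Of the genes that were not, Ngfr had intervals of −0.09 to 0.30 with fluoxetine and −0.29 to 0.10 with venlafaxine. Twist1 spanned 8.38 to 13.96 CPM with fluoxetine, 6.27 to 10.8 CPM with venlafaxine and 5.77 to 12.8 CPM in controls. Fluoxetine libraries 5, 6 and 7 had 13.96, 13.4 and 13.4 CPM of Twist1 and 2.00, 2.67 and 2.04 CPM of Snai2. In both genes they lay above the other 4 fluoxetine libraries. Over 14846 genes, however, their deviations from the fluoxetine mean did not all go together. The r was 0.328 for libraries 5 and 7, −0.151 for 5 and 6 and −0.078 for 6 and 7. Leaving out those 3 libraries gave 0 of 9 calls with fluoxetine (Ednrb 0.34 ± 0.0854, adjusted p = 0.760) and 0 of 9 between the drugs (Erbb3 −0.53 ± 0.178, adjusted p = 0.175). With 4 fluoxetine libraries left, 0 of 16727 genes were called against control at all. Of 8 tested mesenchyme markers, edgeR called none with fluoxetine (DESeq2 called 1, and 1 had an unadjusted p under 0.05), and 1 rose with venlafaxine, and the 10 listed markers summed to 607 to 1668 CPM with fluoxetine, 539 to 970 CPM with venlafaxine and 398 to 1260 CPM in controls.

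**Figure D2:**
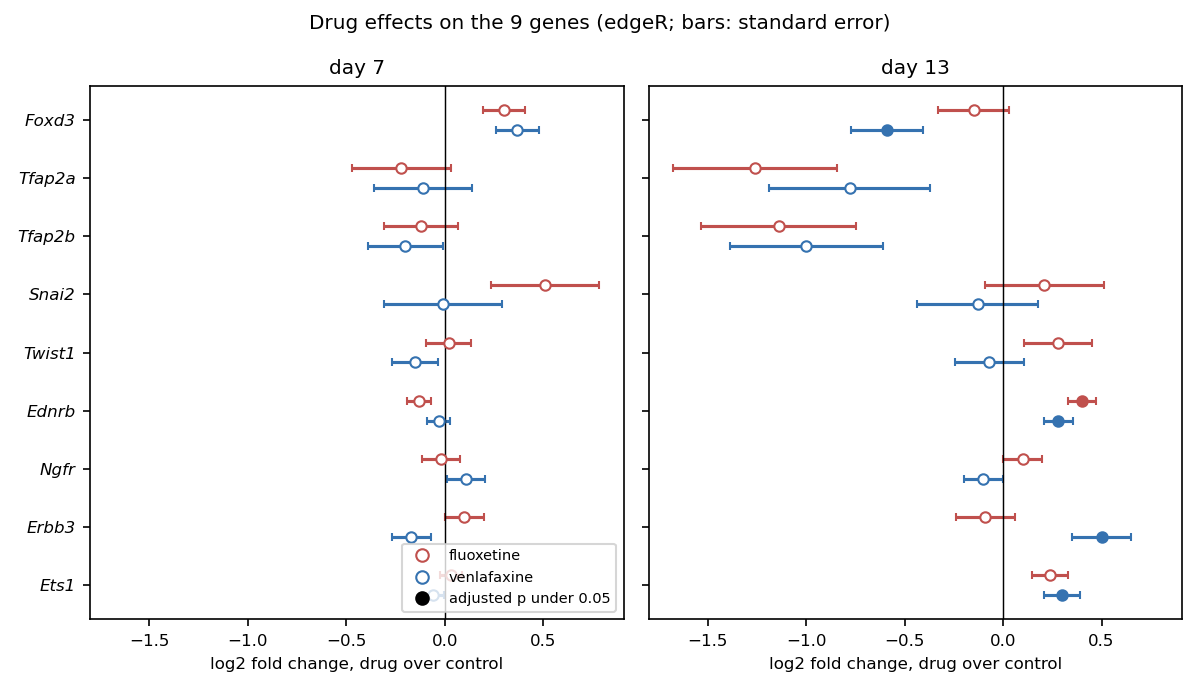
Log2 fold change over control (horizontal axes) of the 9 genes with fluoxetine and venlafaxine on day 7 (left) and day 13 (right), with standard errors. Filled points have an edgeR adjusted p under 0.05: none on day 7, and on day 13 Ednrb with fluoxetine (0.40) and Foxd3 (−0.59), Ednrb (0.28), Erbb3 (0.50) and Ets1 (0.30) with venlafaxine. Tfap2a and Tfap2b lie farthest to the left on day 13, with wide errors.

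The change of a drug effect between the days was tested in 1 model of the 42 libraries of days 7 and 13. For fluoxetine, Ednrb was the 1 gene of 9 called, with an effect higher by 0.54 ± 0.0973 on day 13 than on day 7 (edgeR adjusted p = 0.0122), where 0.277% of 16964 genes were called (0.212% higher and 0.0648% lower). Without fluoxetine day 13 libraries 5, 6 and 7 it was 0.48 (adjusted p = 0.247). For venlafaxine 3 of 9 were called higher and 1 lower, where 12.4% of all genes were called (7.53% higher and 4.89% lower). The Foxd3 effect was lower on day 13 by −0.96 ± 0.220, at 0.37 on day 7 and −0.59 on day 13 (adjusted p = 0.00431). The effects on Ednrb, Erbb3 and Ets1 were higher on day 13 by 0.32 ± 0.0973, 0.67 ± 0.180 and 0.36 ± 0.107 (adjusted p = 0.0274, 0.0130 and 0.0238). The Ednrb call was lost with no filter on low counts (adjusted p = 0.0595) and with all 49 libraries in 1 model (0.0549). For Tfap2a and Tfap2b the differences between days were −1.03 ± 0.513 and −1.02 ± 0.448 with fluoxetine (adjusted p = 0.389 and 0.306).

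Related genes were called in these lists on day 13 with venlafaxine, where all genes were also called far more often than with fluoxetine (22.9% and 0.116%). Of 14 tested crest specifiers and border genes, 4 rose and 1 fell with venlafaxine (median log2 fold change 0.03, against −0.01 over all genes). Gbx2, a border gene, averaged 10.7 CPM with venlafaxine and 16.9 CPM in controls (−0.65 ± 0.129, edgeR adjusted p = 0.00584). Sox10 averaged 76.0 and 54.2 CPM (0.50 ± 0.141, adjusted p = 0.0215), Sox8 61.7 and 47.4 CPM (0.39 ± 0.11, adjusted p = 0.0217) and Snai1 10.6 and 8.31 CPM (0.35 ± 0.102, adjusted p = 0.0242). Of 12 crest-derived autonomic, sensory and melanocyte genes, 2 fell and none rose. Phox2a averaged 2.65 CPM with venlafaxine and 6.02 CPM in controls (−1.15 ± 0.345, adjusted p = 0.0257), and Ret averaged 12.1 and 15.8 CPM (−0.38 ± 0.117, adjusted p = 0.0280).

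The Schwann lineage and myelination genes split in direction. Of 12 tested, 5 rose and 4 fell with venlafaxine (median 0.12). Egr2 averaged 0.245 CPM with venlafaxine and 0.850 CPM in controls, with no overlap (−1.72 ± 0.348, edgeR adjusted p = 0.00644). Cdh19 averaged 0.479 and 1.5 CPM (−1.59 ± 0.542, adjusted p = 0.0410). At 2 to 103 counts per library these are small signals. Mbp, a myelin gene of both central and peripheral glia, rose to 172 CPM with venlafaxine, against 99.97 CPM in controls (0.79 ± 0.211, adjusted p = 0.0178). Gap43, a growth cone gene of neurons and Schwann cells, averaged 286 and 347 CPM (−0.27 ± 0.0611, adjusted p = 0.0107). Cdh19 was added after its values were seen. Beside these, 5 of 8 oligodendrocyte precursor markers rose and 9 of 10 neuron markers fell with venlafaxine. Sox10 is counted in both the Schwann and the oligodendrocyte precursor list. The part of these markers in the split was not tested. Among receptor-related genes 1 of 19 rose (Erbb2, 0.24 ± 0.0734, adjusted p = 0.0279) and 1 fell (Sort1, a co-receptor of Ngfr, −0.10 ± 0.0291, adjusted p = 0.0277).

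With fluoxetine on day 13, edgeR called none of the 14 crest specifiers, 12 Schwann genes, 19 receptor-related genes or 12 crest-derived genes tested. DESeq2 called 1, 1, 2 and 3 of them, against 2.58% of all genes, and 6 of each list had an unadjusted p under 0.05, against 14.1% of all genes. With venlafaxine 8, 10, 5 and 2 of the same lists had an unadjusted p under 0.05, against 38.5% of all genes. Both drugs share the control libraries. Egr2, named after its values were seen, averaged 0.258 CPM with fluoxetine and 0.850 CPM in controls, with no overlap (−1.71 ± 0.352, edgeR adjusted p = 0.0521). Between the drugs, Edn3, a ligand of Ednrb, averaged 1.86 CPM with fluoxetine and 0.665 CPM with venlafaxine (1.41 ± 0.435, adjusted p = 0.0399), and Tfap2c, a paralog of Tfap2a, averaged 10.1 and 19.3 CPM (−0.92 ± 0.301, adjusted p = 0.0492).

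**Figure D3:**
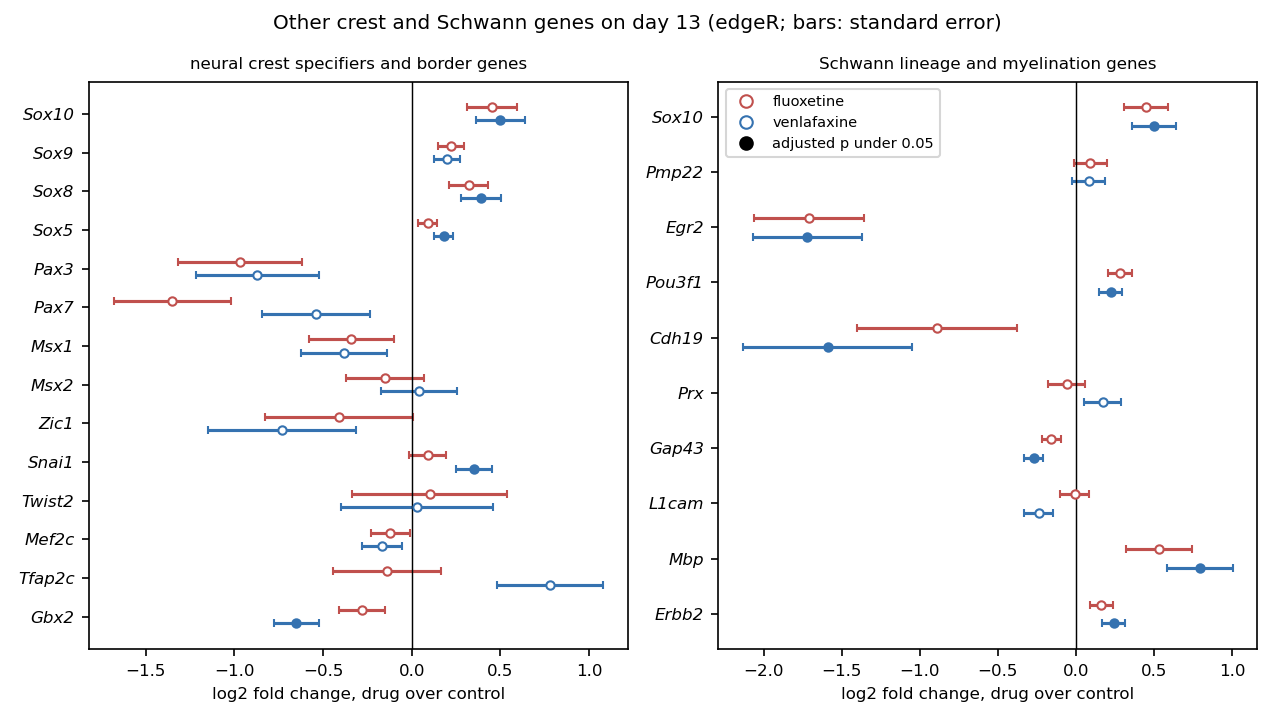
Log2 fold change over control on day 13 (horizontal axes) of crest specifiers and border genes (left) and Schwann lineage and myelination genes (right) with fluoxetine and venlafaxine, with standard errors. Filled points have an edgeR adjusted p under 0.05. With venlafaxine Egr2 and Cdh19 lie below 0 while Sox10 and Mbp lie above it, and no fluoxetine point is filled.

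Libraries of the same group also differed from each other, and some of the 9 genes did so together. For each of 36 pairs the log2 CPM of 42 libraries, after subtracting group means, was correlated, with p-values from 100000 permutations within groups adjusted over the pairs. The permutations treated the libraries as independent, which no label states. By Pearson's r 5 pairs passed, 2 positive and 3 negative. Tfap2a and Tfap2b were correlated at r = 0.911 and rho = 0.904 (adjusted permutation p = 0.00036 for each, from 1e-05, the smallest these permutations can give). For each pair, r was also taken without the 2 libraries farthest from the median of the gene named first. Extreme libraries of the other gene were not sought. For Tfap2a and Tfap2b this r was 0.866, and r was 0.946 within day 7 and 0.908 within day 13. Snai2 and Twist1 were correlated at r = 0.626 and rho = 0.610 (adjusted p = 0.00288 and 0.00324), with 0.603 without the 2 farthest libraries. The relation was weaker on day 7 (0.265) than on day 13 (0.842), a difference that was not tested.

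**Figure D4:**
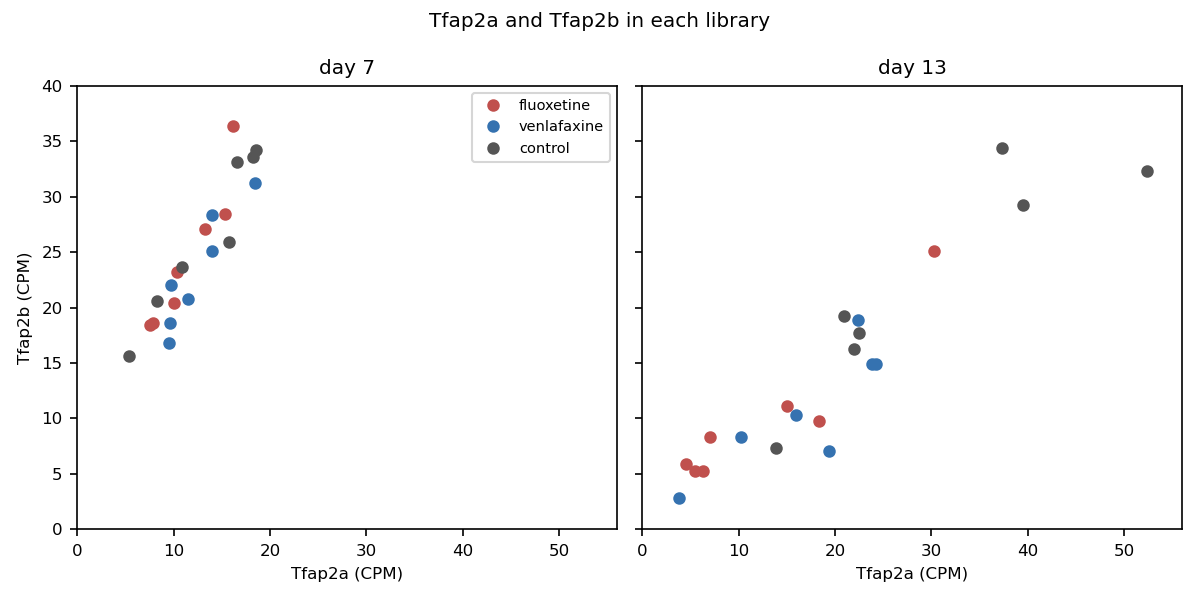
Tfap2a (horizontal axes, CPM) and Tfap2b (vertical axes, CPM) in each library of day 7 (left) and day 13 (right). The 2 genes move together among libraries on both days, with Tfap2b above Tfap2a on day 7 and below it in 19 of 21 day 13 libraries. Fluoxetine library 4 of day 13 lies apart from the other 6 at 30.2 and 25.1 CPM.

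Foxd3 and Erbb3 were negatively correlated (r = −0.574, rho = −0.558, adjusted permutation p = 0.00672 and 0.00912), at −0.488 without the 2 farthest libraries. Within days r was −0.092 on day 7 and −0.759 on day 13, so the relation did not hold within day 7. Ngfr and Erbb3 had r = −0.457 (adjusted p = 0.0229) and rho = −0.425 (adjusted p = 0.0665), with −0.356 without the 2 farthest libraries, −0.387 on day 7 and −0.512 on day 13. Tfap2b and Ednrb had r = −0.494 (adjusted p = 0.0229) and rho = −0.339 (adjusted p = 0.136), with −0.318 without the 2 farthest libraries. The sign differed between days: r was 0.488 on day 7 and −0.905 on day 13, so the negative relation was present within day 13 and not within day 7. For Tfap2a and Ednrb the values were 0.576 and −0.865, with a pooled r of −0.384 (adjusted p = 0.0823) and a rho of −0.300 (adjusted p = 0.143).

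**Figure D5:**
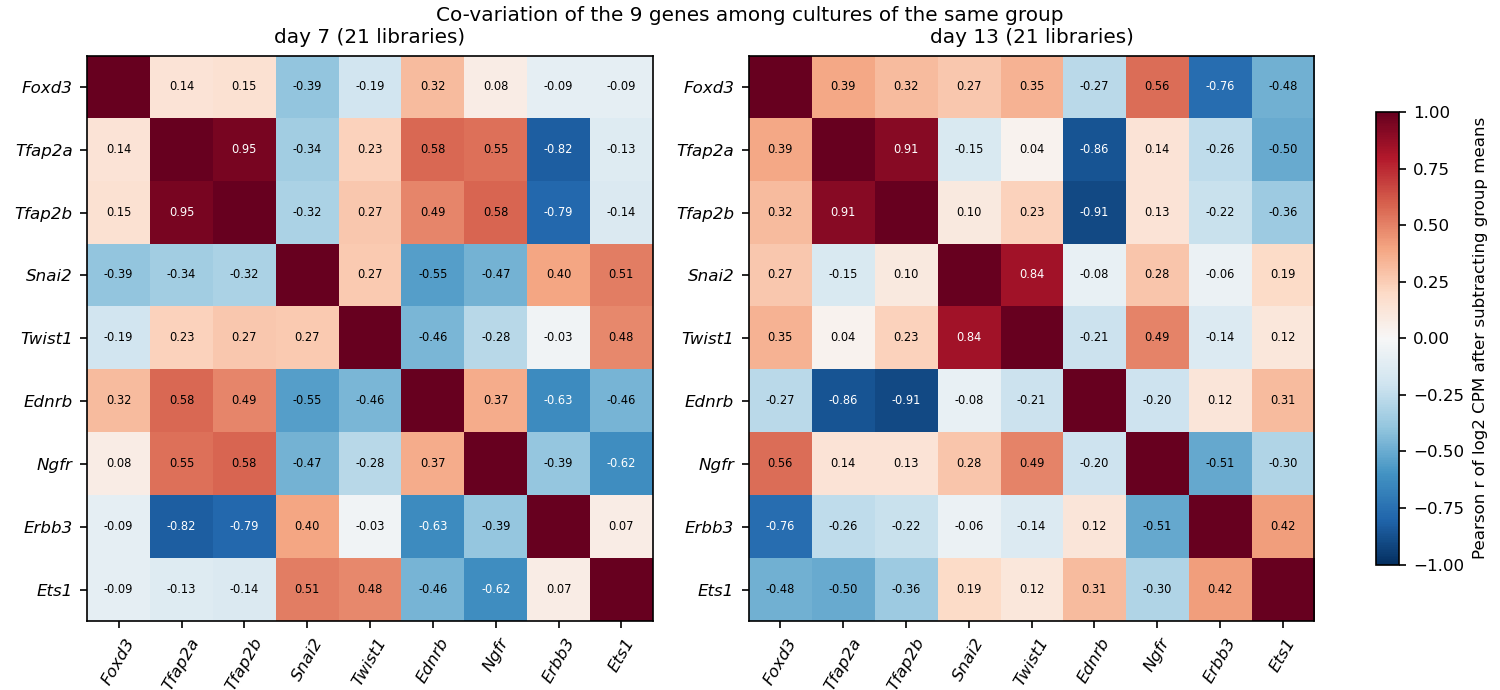
Pearson r between the 9 genes over the 21 libraries of day 7 (left) and of day 13 (right), from log2 CPM after subtracting group means (red positive, blue negative). Tfap2a and Tfap2b are high on both days, while each of them with Ednrb is positive on day 7 and negative on day 13.

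The genes whose variation within groups was most like that of each member differed from member to member. Over the 42 libraries Tfap2a was closest to Pou4f2 (r = 0.952), Lbx1 (0.933) and Pou4f1 (0.930), and Tfap2b to Skor1 (0.922), Lbx1 (0.916) and Pou4f1 (0.906). Ednrb was closest to Lrrn1 (0.915), Fgfbp3 (0.854) and Gpm6b (0.838), and Ngfr to Dbn1 (0.904), Sbk1 (0.862) and Ina (0.853). Erbb3 was closest to Arhgef5 (0.833), Esrp1 (0.818) and Myh9 (0.804), and Twist1 to S1pr3 (0.858), Emilin1 (0.830) and Col3a1 (0.829). Foxd3 was closest to Kdm5b (0.762), Cep120 and Slain2 (both 0.759), Ets1 to Spc25 (0.775), Sdc1 (0.755) and Gen1 (0.750), and Snai2 to Adamts1 (0.706), Hmcn1 (0.704) and Osr1 (0.702). Lbx1 and Pou4f1 were the neighbours that members shared, both between Tfap2a and Tfap2b. These values are the highest among all genes searched and are given as a description.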

How the data were processed

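The authors deposited raw counts per gene (whole numbers), 1 column for each of 49 libraries of polyA RNA made with a strand-specific Illumina kit, per the labels' protocols. The submitters' processing notes name STAR 2.6.0b, featureCounts 1.6.1, FastQC 0.11.5 and bcl2fastq 2.19.0.316, and the build GRCm38.p6. They state neither annotation release nor strand setting, nor what was done with multiply matching reads. Of 52550 identifiers, 52403 matched GENCODE vM21, which gave exons and neighbours. Coordinates are those of the deposited table.

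The main test was edgeR's robust quasi-likelihood F test (edgeR 4.0.16, R 4.3.3), with TMM scaling and filterByExpr by group. P-values were adjusted by Benjamini-Hochberg over every gene that passed that filter, and a gene was called at an adjusted p under 0.05. The 3 control groups, and the 3 groups of each day, were fitted together. Each SE was taken as the size of log2 fold change over the square root of its F, and CPM uses TMM factors over all 49 libraries. The 95% intervals used that SE with the normal distribution. They are narrower than the F test implies and can exclude 0 where the unadjusted p is above 0.05. The code was tested on simulated data. DESeq2 1.42.0, other filters and scalings, a replicate block, all 49 libraries in 1 model and each library left out in turn were alternatives.

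The members and gene lists were chosen with earlier results of these data known, fluoxetine day 13 libraries 5, 6 and 7 as libraries to leave out among them. Named are the members, at most 4 called genes a list by smallest p, and for each member the 3 genes with the highest r and a mean of at least 2 CPM in a group. Some genes of the lists are counted but not reported by name here. The lists are not separate sets. Sox10 is in the crest specifier, Schwann and oligodendrocyte precursor lists. Erbb2 is in the Schwann and receptor-related lists, and Pdgfra in the mesenchyme and oligodendrocyte precursor lists. Counting intervals and floors cover counting error only.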

Additional observations from a re-analysis of the deposited data

Results flagged for a closer look

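Of 62 combinations of a gene and a group with values that differed, 5 had a library far from the other 6, where chance gives about 1 in 20. Tfap2b in fluoxetine day 13 library 4 was at 25.1 CPM, above the next highest library at 11.1 CPM. Twist1 in fluoxetine day 7 library 2 was at 6.78 CPM, above the next at 5.196 CPM, and Ets1 in the same library was at 39.9 CPM, above the next at 34.0 CPM. Ednrb in control day 0 library 3 was at 1.45 CPM, above the next at 0.659 CPM. Ngfr in control day 0 library 1 was at 33.8 CPM, below the next lowest at 37.2 CPM.

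A drug effect differed between the days, by the test of the difference itself, in 5 cases. The effect on day 13 minus that on day 7, on the log2 scale, was 0.54 for Ednrb with fluoxetine, and with venlafaxine −0.96 for Foxd3, 0.32 for Ednrb, 0.67 for Erbb3 and 0.36 for Ets1.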

How the results depend on the processing

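No member reversed its direction where it had been called, and the calls of the control time course held within 1 gene (6 to 9 members called). The filter at 1 CPM gave 6 for day 13 over day 7 and 7 for day 13 over day 0. Snai2 did not pass that filter and was not tested there, so no call was lost by the test. Counts of called members moved as follows. For venlafaxine on day 7 (0 of 9), DESeq2 and a filter at 1 CPM gave 1 each, and leaving out each library in turn gave 0 to 1. For fluoxetine on day 13 (1 of 9), omitting libraries 5, 6 and 7 gave 0, all 49 libraries in 1 model gave 3 (Tfap2a and Tfap2b added, adjusted p = 0.0248 and 0.0414), and each library in turn gave 0 to 3. For venlafaxine on day 13 (4 of 9), all 49 libraries gave 5 (Tfap2b added, adjusted p = 0.0179), and each library in turn gave 1 to 5. For that comparison all 49 libraries called 5164 of 17543 genes, against 3753 of 16397 in the main test. For fluoxetine over venlafaxine on day 13 (1 of 9), omitting libraries 5, 6 and 7 gave 0, all 49 libraries gave 2 (Foxd3 added, adjusted p = 0.0250), and each library in turn gave 0 to 1. For the fluoxetine effect between days (1 of 9), omitting libraries 5, 6 and 7 gave 0. Among all genes on day 13, fluoxetine had 19 calls, DESeq2 gave 423 (268 higher) and all 49 libraries 575, and between the drugs 1986 calls became 3467 with all 49 libraries and 19 without libraries 5, 6 and 7. On day 7 DESeq2 gave 57 for fluoxetine and 112 between the drugs, and all 49 libraries gave 18 for fluoxetine, against 8, 23 and 8. The fluoxetine effect between days had 47 calls, 181 with DESeq2, 83 with all 49 libraries and 1 without libraries 5, 6 and 7. Apart from samples left out, the cause of these moves was not tested.

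A replicate block gave 0 called members for fluoxetine (Ednrb adjusted p = 0.102), for venlafaxine (0.0600 to 0.0759 for the 4) and between the drugs (Erbb3 0.0560) on day 13. Among all genes it gave 282 calls for venlafaxine (185 higher), 0 for fluoxetine and 176 between the drugs, against 3753, 19 and 1986 without it. On day 7 it gave 290 for venlafaxine and 8 between the drugs, against 599 and 23. For the effects between days it gave 10 for fluoxetine and 1445 for venlafaxine, against 47 and 2107. Of the members, the 1 call for the fluoxetine effect between days and the 4 for venlafaxine held with the block. Same-numbered libraries correlated between −0.464 and 0.242 in their deviations. In any comparison at most 1 library correlated best with its own number. Such correlations cannot show whether same-numbered libraries shared a run or a differentiation, and no label tells this. Low depth limits Snai2, Egr2 and Cdh19 most.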
